A study of Homo sapiens with 6 samples.

Results

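Proteoglycan core proteins were followed in H2087-LCC cells through 10 genes: VCAN, SPOCK1, BGN, DCN, HSPG2, SDC1, SDC2, SDC4, GPC1 and SRGN. They were selected by symbol, and 10 of the 10 were found among the 21293 genes of the deposited table. H2087-LCC is a latency competent population selected in mice from the human LUAD cell line H2087, labelled as a dormant metastatic derivative, and all 6 libraries came from it. There were 3 groups of 2 libraries. The SB group received 2.5 μM SB505124, which blocks TGFβ receptor signalling, for 3 days, and the other groups received 100 pM TGFβ for 3 days or for 7 days. SB is the baseline of both comparisons, and no 7-day SB library was analysed. Time in culture and TGFβ therefore cannot be told apart in the 7-day comparison with SB. The same holds for 7 days against 3 days of TGFβ, where longer TGFβ and longer culture go together. The study describes the libraries of a group as technical replicates, so SDs and p-values cover only the spread between those libraries.

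A proteoglycan is a core protein that carries long, negatively charged sugar chains called glycosaminoglycans, attached to serines in the Golgi. Secreted proteoglycans fill and space the extracellular matrix. Those on the cell surface, the syndecans and glypicans, bind growth factors and matrix proteins through heparan sulfate. Versican and several other matrix proteoglycans are known targets of TGFβ, and decorin and biglycan are known to bind TGFβ itself. Transcript levels do not show how much core protein is made or which chains it carries.

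Values are normalized counts, that is, reads per gene scaled by library size. From the spacing of the low values, 1 read was worth 0.896 to 1.10 normalized counts, or an estimated 32000000 to 40000000 reads per library. SMAD7, an established TGFβ target, was at 112 and 79 in SB and between 747 and 916 in the 4 TGFβ libraries. Of the 7 epithelial markers, the keratin KRT18 was at 31757 to 50793. The list summed to 100446 to 111790 in SB, 84067 to 92835 at 3 days and 78953 to 89008 at 7 days. At an adjusted p under 0.05 (limma), 5 of the 7 (CDH1, EPCAM, KRT18, NKX2-1 and SOX2) were lower than in SB at both times and 0 were higher. Over all tested genes, 14.0% were lower at 3 days and 26.9% at 7 days. Of the leukocyte markers, PTPRC was at 4 or lower in each library, and the summed leukocyte list, nearly all of it CD68, was 4889 to 5146 in SB, 4381 to 5040 at 3 days and 4572 to 5021 at 7 days. Of the 4 fibroblast markers, LUM was listed at 0 in the 6 libraries, and their sum was 10 to 18 in SB, 30 to 35 at 3 days and 59 to 61 at 7 days. The endothelial list of 4 genes summed to 160 to 294 in SB and to 93 to 132 with TGFβ.

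Most of the members that could be tested were higher with TGFβ, VCAN and SPOCK1 by the largest factors. The members were chosen with earlier results of these data known, so their counts do not stand for proteoglycan genes in general. With a mean of at least 10 normalized counts, 7 of the 10 genes entered the test, limma on the log2 of the normalized count plus 1, and BGN, DCN and SRGN did not. After 3 days of TGFβ, 4 of the 7 were higher than in SB at an adjusted p under 0.05 (VCAN, SPOCK1, SDC1 and GPC1) and 0 were lower, where 29.0% of all 14395 tested genes were called and 14.9% were called higher and 14.0% lower. After 7 days, 5 were higher, with SDC2 added, and 0 were lower, against 54.5% of all genes called and 27.7% called higher and 26.9% lower. Between 7 days and 3 days, VCAN, SPOCK1, SDC2 and GPC1 were higher at 7 days and 0 were lower, against 33.2% called and 17.0% called higher and 16.2% lower. The median log2 fold change of the 7 genes was 0.80, 1.52 and 0.63 in these comparisons, beside -0.0215, -0.0008 and 0.0187 over all tested genes. Both comparisons with SB share the same SB libraries. In bulk RNA, more cells that express a gene and more RNA per cell cannot be told apart. The fibroblast marker sum given above moved in the same direction as VCAN and SPOCK1. Within it, FAP was at 4 and 0 in SB, 10 and 14 at 3 days, and 42 and 53 at 7 days. PDGFRA was at 14 and 8 in SB, 16 and 16 at 3 days, and 13 and 8 at 7 days, and COL1A2 was at 5 or lower in each library. The part of these marker genes in the results was not tested.

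**Figure D1:**
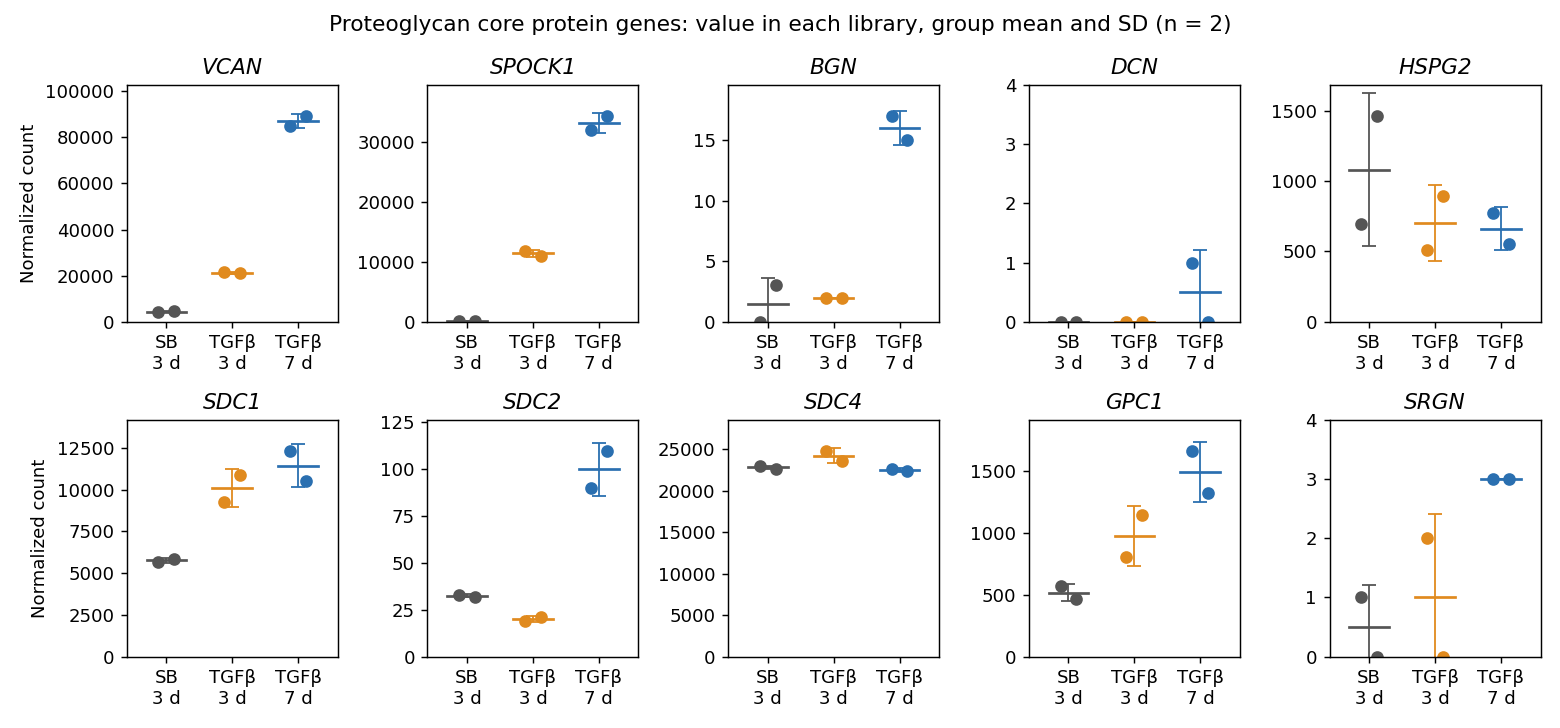
Normalized count (vertical axis, linear from 0, scaled separately for each gene) of the 10 proteoglycan genes in SB, TGFβ 3-day and TGFβ 7-day libraries. Points are libraries, horizontal lines are group means and bars are SDs (n = 2). VCAN and SPOCK1 climb in steps from SB to 3 days to 7 days, SDC4 stays between 22324 and 24833, SDC2 and BGN are highest at 7 days, and DCN and SRGN stay at 3 or lower.

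VCAN encodes versican, a large chondroitin sulfate proteoglycan that binds hyaluronan in loose, expanding matrix. The gene lies on chromosome 5 of GRCh37 from 82767437 to 82878122 on the plus strand, and its canonical transcript has 15 exons. Its normalized counts were 4208 and 4595 in SB, 21439 and 21018 after 3 days of TGFβ, and 85006 and 89304 after 7 days. The groups were far apart and the libraries of each group lay close together. VCAN rose 4.82-fold at 3 days relative to SB (log2 fold change 2.27, standard error 0.08, adjusted p = 2.90e-09). By 7 days the ratio to SB was 19.8 (log2 fold change 4.31, adjusted p = 7.20e-12). About equal steps on the log2 scale thus made up the rise, 2.27 by 3 days and 2.04 (95% interval 1.86 to 2.21) from 3 days to 7 days. Reads were counted per gene, so the splice forms of versican, which differ in their chondroitin sulfate attachment regions, cannot be told apart.

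SPOCK1 encodes testican-1, a secreted proteoglycan with a calcium-binding domain related to that of SPARC. It also lies on chromosome 5, from 136310987 to 136934068 on the minus strand, with 11 canonical exons. In SB its normalized counts were 150 and 111, against 11884 and 11075 at 3 days and 32010 and 34421 at 7 days. No other member differed from SB by a larger factor. SPOCK1 rose 88.0-fold at 3 days (log2 fold change 6.46, standard error 0.12, adjusted p = 5.66e-11) and stood 255-fold above SB at 7 days (8.0 on the log2 scale, adjusted p = 2.41e-12). From 3 days to 7 days it rose by a further 1.53 on the log2 scale (95% interval 1.26 to 1.80, adjusted p = 1.25e-05), a ratio of 2.89. Most of its log2 rise was thus in place by 3 days, unlike the even steps of VCAN. The other testican genes were low: SPOCK2 peaked at 14 normalized counts and SPOCK3 at 31, and SPOCK3 was not past the threshold at 7 days against SB (log2 fold change 0.41, 95% interval -0.51 to 1.32).

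Promoter sequence is shown for VCAN, which rose at both times, and for SDC4, the highest member per kb of transcript, which did not pass the threshold in any comparison. The RefSeq table on GRCh38.p14 matched 6 of the 10 genes (VCAN, BGN, HSPG2, SDC1, SDC4 and GPC1). Shown are the 250 bases before each RefSeq start, 5′ to 3′ on the strand of the gene, chr5:83471494-83471743 on the plus strand for VCAN and chr20:45348425-45348674 on the minus strand for SDC4. Capitals mark each match to any of 4 motifs searched on both strands, and every capital here belongs to a GC box, GGGCGG.
VCAN: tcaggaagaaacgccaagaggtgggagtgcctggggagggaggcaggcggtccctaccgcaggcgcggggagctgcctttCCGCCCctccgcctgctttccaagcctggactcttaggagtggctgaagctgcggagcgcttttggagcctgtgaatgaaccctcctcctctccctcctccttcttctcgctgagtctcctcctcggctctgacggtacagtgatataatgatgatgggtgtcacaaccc
SDC4: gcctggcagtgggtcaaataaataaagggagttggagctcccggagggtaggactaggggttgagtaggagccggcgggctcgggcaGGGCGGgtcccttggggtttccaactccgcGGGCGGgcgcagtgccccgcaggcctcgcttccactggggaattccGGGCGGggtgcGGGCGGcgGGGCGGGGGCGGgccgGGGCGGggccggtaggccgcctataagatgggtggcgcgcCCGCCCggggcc
The VCAN stretch held 1 GC box and the SDC4 stretch 8, none of which overlap, and 42.6% of 35116 promoters held at least 1. The G and C share was 60.8% for VCAN and 73.6% for SDC4, with a median of 58.0% over all promoters. The SMAD box CAGAC, the AP-1 site TGANTCA and the E-box CAGGTG had no match in either stretch, where 38.0%, 6.57% and 17.5% of promoters of this length held them. Among the other matched members, CAGAC had 1 match before HSPG2 and 1 before the more upstream of the SDC1 starts, and CAGGTG had 1 before that same SDC1 start. A match or its lack describes these letters in this window only.

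Syndecans are transmembrane heparan sulfate proteoglycans with a short cytoplasmic tail, and their genes in this set behaved in different ways. SDC1 encodes syndecan-1, the main syndecan of epithelia, and lies on chromosome 2 from 20400558 to 20425194. Its normalized counts were 5646 and 5877 in SB, 9274 and 10883 at 3 days, and 12347 and 10529 at 7 days. Both TGFβ groups lay above SB and overlapped each other. SDC1 rose 1.75-fold by 3 days (0.80 on the log2 scale, standard error 0.10, adjusted p = 0.000102) and was 1.99-fold above SB at 7 days (0.98 on the log2 scale, adjusted p = 9.00e-06). The difference between 7 days and 3 days was not past the threshold (0.18, 95% interval -0.04 to 0.41, adjusted p = 0.191). It reached an adjusted p of 0.0483 only with the replicate block crossed, an alternative added later that no label calls for. Its log2 fold change was 0.04 to 0.2 over the alternatives with all libraries and 0.07 to 0.3 with each library left out. This gene was higher with TGFβ while CDH1, which encodes the epithelial adhesion molecule E-cadherin, went from 371 and 635 in SB to 28 and 24 at 3 days and 10 and 9 at 7 days.

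SDC4 encodes syndecan-4, which works with integrins at focal adhesions. It lies on chromosome 20 from 43953928 to 43977064 and was the most abundant member per kb of transcript in each group. Its normalized counts were 22948 and 22649 in SB, 24833 and 23599 at 3 days, and 22663 and 22324 at 7 days. SDC4 did not pass the threshold in any comparison. Its log2 fold change was 0.09 at 3 days against SB (95% interval -0.08 to 0.25, adjusted p = 0.424) and -0.02 at 7 days against SB (-0.18 to 0.14, adjusted p = 0.840), and the latter changed sign with libraries scaled to equal upper quartiles (0.006). Between 7 days and 3 days it was -0.11 (-0.27 to 0.06, adjusted p = 0.303), which reached an adjusted p of 0.0473 after a correction for GC content and length.

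SDC2 encodes syndecan-2, the syndecan of mesenchymal cells, and was low here. Its normalized counts were 33 and 32 in SB, 19 and 21 at 3 days, and 90 and 110 at 7 days. The 3-day libraries were below both SB libraries and the 7-day libraries above them. At 3 days the log2 fold change of -0.68 relative to SB was not past the threshold (standard error 0.26, 95% interval -1.24 to -0.11, adjusted p = 0.0711), but it was past it without the limma trend on mean expression (adjusted p = 0.0197) and after the correction for GC content and length (-0.70, adjusted p = 0.0332), in a range of 0.0197 to 0.257 over the alternatives. At 7 days SDC2 was 3.08-fold above SB (log2 fold change 1.59, adjusted p = 0.000297). It rose 5-fold between 3 days and 7 days (log2 fold change 2.26, standard error 0.26, adjusted p = 0.000106). SDC3, a further syndecan, was at 2491 to 3188 in the 6 libraries and did not pass the threshold in any comparison.

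GPC1 encodes glypican-1, a heparan sulfate proteoglycan held to the membrane by a GPI anchor. It lies on chromosome 2 from 241375080 to 241407493. Normalized counts of GPC1 were 567 and 467 in SB, 800 and 1147 at 3 days, and 1663 and 1317 at 7 days. The 3 groups did not overlap. GPC1 rose 1.88-fold by 3 days (log2 fold change 0.90, standard error 0.17, adjusted p = 0.00226, or 0.0543 with low genes kept, in a range of 6.11e-05 to 0.0543 over the alternatives) and 2.88-fold by 7 days (1.52, adjusted p = 1.95e-05). From 3 days to 7 days it rose by 0.63 on the log2 scale (adjusted p = 0.0169). That last call was lost without the first 3-day library (0.37, adjusted p = 0.154) and without the first 7-day library (0.46, adjusted p = 0.149). With low genes kept in the fit its adjusted p was 0.114, and it was 0.0955 when limma was run without the trend.

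HSPG2 encodes perlecan, the large heparan sulfate proteoglycan of basement membranes. It lies on chromosome 1 from 22148737 to 22263803, with 97 canonical exons. Its normalized counts were 695 and 1464 in SB, 509 and 895 at 3 days, and 771 and 553 at 7 days. The libraries of each group were wide apart and the groups overlapped. HSPG2 did not pass the threshold at 3 days (log2 fold change -0.58, 95% interval -1.27 to 0.11, adjusted p = 0.193) or at 7 days against SB (-0.63, -1.31 to 0.06, adjusted p = 0.112). These calls depended on the SB libraries: without the first SB library the values were -1.12 (adjusted p = 0.0235) and -1.16 (adjusted p = 0.0111), and without the second they came to -0.04 and -0.09. They also crossed the threshold without the second 3-day library (-0.99, adjusted p = 0.0320, and -0.63, adjusted p = 0.0469), without the first 3-day library at 7 days (adjusted p = 0.0473), with only the 4 libraries of the 7-day comparison fitted (adjusted p = 0.0482) and with the replicate number as a block (adjusted p = 0.0364 and 0.0122). Between 7 days and 3 days the value was -0.05 (-0.74 to 0.64), and leaving out the second library at 3 days turned it to 0.36, while leaving out the second at 7 days turned it to 0.19.

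The spread of HSPG2, GPC1 and SDC1 between libraries of a group went with that of other GC-rich transcripts in the TGFβ groups. The G and C share of the canonical transcript was 64.5% for HSPG2, 66.7% for GPC1 and 59.1% for SDC1, against 42.5% for VCAN and 44.2% for SPOCK1. Among genes whose mean reached 100, the 1376 with a share of at least 60% had a median deviation from the group mean of -0.17 and 0.17 on the log2 scale in the first and second 3-day libraries, and of 0.13 and -0.13 in the 7-day libraries. HSPG2 deviated by -0.41 and 0.41 at 3 days and by 0.24 and -0.24 at 7 days, and GPC1 by -0.26 and 0.26 and by 0.17 and -0.17. In SB, HSPG2 deviated by -0.54 and 0.54 where the GC-rich median was -0.04 and 0.04, and GPC1 went the other way, at 0.14 and -0.14. After a correction of each library for GC content and length, chosen after the data were seen, HSPG2 was lower than in SB by -0.67 at 3 days (adjusted p = 0.0405) and by -1.06 at 7 days (adjusted p = 0.00315). The part of GC content in the HSPG2 and GPC1 values was not tested further.

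**Figure D2:**
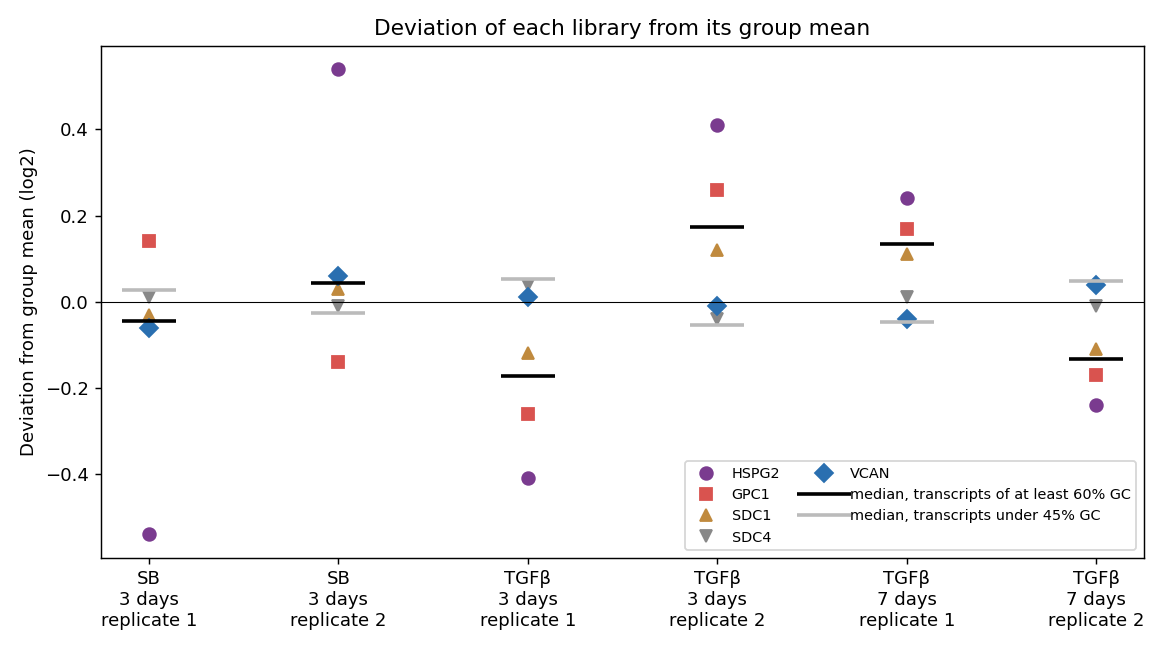
Deviation of each library from its group mean (vertical axis, log2) for 5 members, with the median deviation of transcripts of at least 60% GC (black) and under 45% GC (grey). HSPG2, GPC1 and SDC1 move with the black line in the 4 TGFβ libraries, while VCAN and SDC4 stay within 0.06 of zero.

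BGN, DCN and SRGN were at or near the floor. BGN encodes biglycan, a small leucine-rich proteoglycan, and lies on chromosome X from 152760438 to 152775004. Its normalized counts were 0 and 3 in SB, 2 and 2 at 3 days, and 17 and 15 at 7 days, so the 7-day libraries were above the other 4. The mean over the 6 libraries was 6.5, under the minimum for the test. From an estimated 33 reads at 7 days and 4 at 3 days, the ratio was 8.29, with a 95% exact interval of 2.95 to 32.2 that covers counting error only. When the filter on low values was dropped, BGN was past the threshold at 7 days against SB (log2 fold change 3.08, adjusted p = 0.0194) and not between 7 days and 3 days (2.5, adjusted p = 0.0644). HAUS7 lies on the opposite strand across the BGN locus, and the library kit does not mark strand, so reads shared by both genes cannot be told apart. HAUS7 was at 402 and 398 in SB, 258 and 284 at 3 days, and 228 and 180 at 7 days, lower where BGN was higher.

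DCN encodes decorin, a collagen-binding relative of biglycan, and was listed at 0 in 5 libraries and at 1 in the first 7-day library. SRGN encodes serglycin, the granule proteoglycan of blood cells, and was at 1 and 0 in SB, 2 and 0 at 3 days, and 3 and 3 at 7 days. Neither rose above 3 normalized counts, so no fold change is given and a difference was not detectable at this depth.

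**Figure D3:**
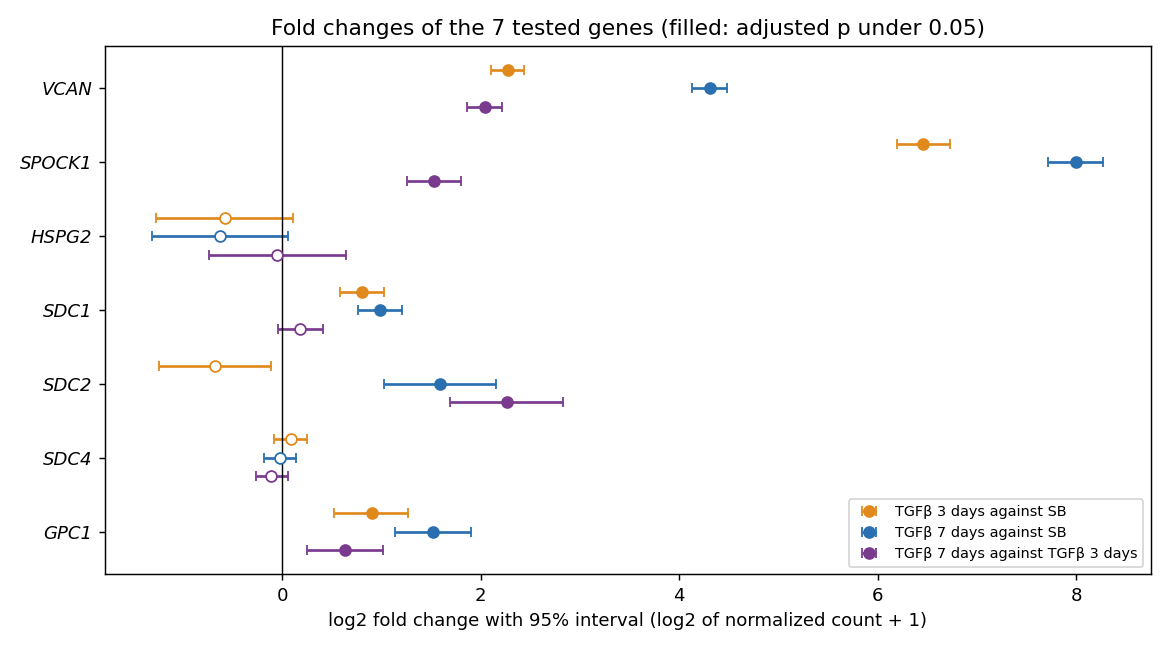
Log2 fold change with 95% interval (horizontal axis) of the 7 tested members for TGFβ 3 days against SB (orange), TGFβ 7 days against SB (blue) and 7 days against 3 days (purple). Filled points have an adjusted p under 0.05. SPOCK1 at 8.0 and VCAN at 4.31 lie farthest to the right at 7 days, and the intervals of HSPG2 and SDC4 cross zero.

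Per kb of canonical transcript, which allows genes to be compared, SDC4 had the highest mean in each group, at 8730 ± 80.9 normalized counts per kb in SB (SD, n = 2), 9270 ± 334 at 3 days and 8610 ± 91.7 at 7 days. SDC1 followed in SB at 1820 ± 51.6 and VCAN came next at 357 ± 22.2. SPOCK1 was sixth in SB at 27.1 ± 5.72 per kb, below HSPG2 at 75.3 ± 37.9. At 3 days SPOCK1 was at 2380 ± 119, VCAN at 1720 ± 24.1 and SDC1 at 3180 ± 359. At 7 days VCAN reached 7060 ± 246 and SPOCK1 6890 ± 353, whose ranges of 6890 to 7230 and 6640 to 7140 overlapped, and SDC1 stood at 3610 ± 406. SDC2 at 30.2 ± 4.28 and BGN at 6.80 ± 0.601 remained low on this scale even at 7 days.

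Within the 10 members, shares of the summed levels per kb shifted accordingly from the surface syndecan gene SDC4 towards the secreted VCAN and SPOCK1. SDC1 made up 16% and 16.6% of the sum in SB, 17.3% and 20.4% at 3 days, and 14.6% and 12.5% at 7 days. Surface genes outside the 10, such as CD44 and NRP1, are not part of this sum. SDC4 made up 78.8% and 77.7% of the sum in SB, 56.3% and 53.6% at 3 days, and 32.6% and 32.0% at 7 days, although its own level did not pass the threshold. VCAN and SPOCK1 made up 3.06% and 0.279% in the first SB library and 25.9% and 24.9% in the first 7-day library. The sum over the 10 genes was 11150 and 11159 per kb in SB, 16893 and 16846 at 3 days, and 26634 and 26674 at 7 days. These shares describe transcripts, and transcript lengths were taken from the canonical isoform alone.

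**Figure D4:**
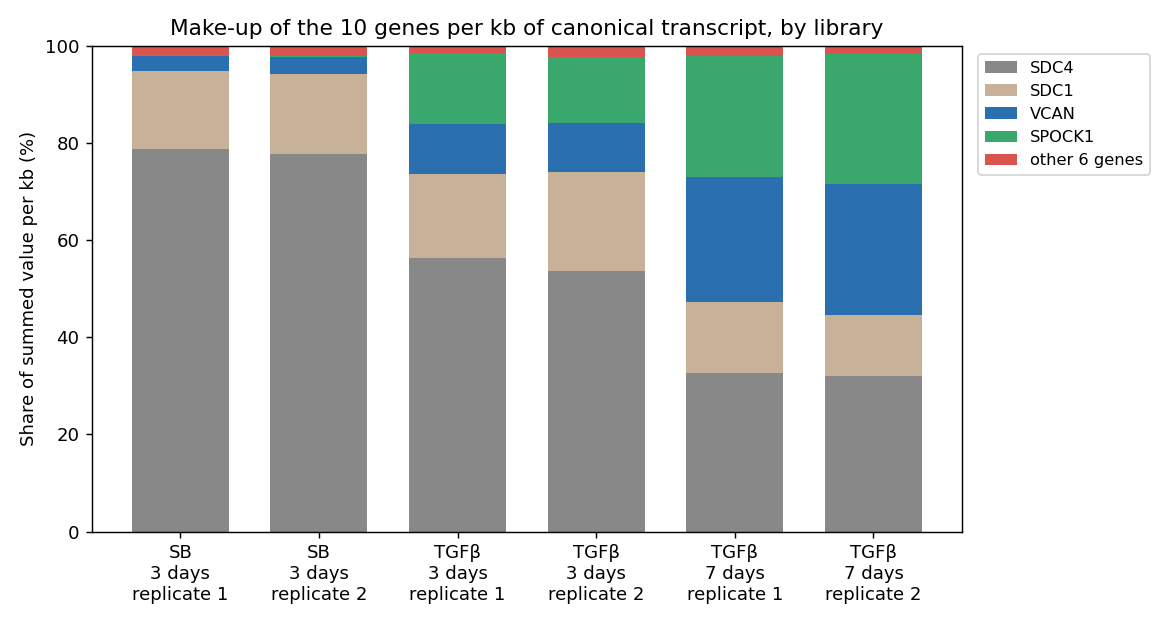
Share of the summed normalized count per kb (vertical axis, %) taken by SDC4, SDC1, VCAN, SPOCK1 and the other 6 genes in each of the 6 libraries (bars). SDC4 falls from 78.8% in the first SB library to 32.0% in the second 7-day library, while the shares of VCAN and SPOCK1 grow.

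Other proteoglycan genes were taken from lists of 44 symbols, of which 42 were in the table and 22 were tested. Relative to SB, 5 of the 22 were higher and 7 lower at 3 days, and 10 were higher and 5 lower at 7 days. Over all tested genes, 14.9% were higher and 14.0% lower at 3 days, and 27.7% and 26.9% at 7 days, so the 5 higher at 3 days and the 5 lower at 7 days were not far from those shares. Between 7 days and 3 days, 10 were higher and 0 lower, against 17.0% and 16.2% of all genes, and the 10 came to 5 without the filter on low values. Their median log2 fold changes were -0.06, 0.39 and 0.63. ACAN encodes aggrecan, the cartilage relative of versican. ACAN was listed at 0 in both SB libraries, at 12 and 14 at 3 days and at 45 and 28 at 7 days. Set against a floor of 3 counts per library, it was at least 4.33-fold higher than SB at 3 days and at least 12.2-fold higher at 7 days. Its mean of 16.5 reached the minimum of 10 only through the TGFβ libraries. The calls of ACAN, which are among those counted above, therefore carry no weight of their own. BCAN, the brain lectican brevican, had log2 fold changes of -0.63 and -0.86 against SB at the earlier and later time (adjusted p = 0.0114 and 0.000774).

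Of the basement membrane proteoglycans other than perlecan, COL15A1 was at 18 and 19 in SB, 124 and 118 at 3 days, and 476 and 463 at 7 days, 25.4-fold above SB at 7 days (adjusted p = 3.32e-09). COL18A1, the source of endostatin, rose 2.22-fold at 7 days (adjusted p = 0.000119), and AGRN, which encodes agrin, did not pass the threshold. GPC4, a further glypican, was lower than SB at 3 days (-0.40 on the log2 scale, adjusted p = 0.0417) and higher at 7 days (0.37, adjusted p = 0.0322), and rose by 0.77 in between (adjusted p = 0.00141). Among the small leucine-rich genes beside BGN and DCN, 12 of the 14 in the table stayed under 20 normalized counts in each library, LUM, FMOD and EPYC at 0. The other two, TSKU and PODNL1, were higher than in SB at both times, with TSKU 2.67-fold higher at 7 days (adjusted p = 8.12e-06).

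The remaining 14 genes, most of them for proteins that carry a glycosaminoglycan chain only part of the time, moved both ways. Of the 11 tested, 1 was higher and 5 lower at 3 days against SB, and 3 were higher and 4 lower at 7 days, beside the same shares of all genes (14.9% and 14.0%, then 27.7% and 26.9%). The lower genes at both times include PRG2, which entered the test only through its SB libraries, at 20 and 20. CD44, the hyaluronan receptor, was higher at 3 days (log2 fold change 0.60, adjusted p = 0.00104) and 7 days (0.45, adjusted p = 0.00325). NRP1, a co-receptor for VEGF and semaphorins, rose by 0.64 between 3 days and 7 days (adjusted p = 0.00014). THBD, which encodes thrombomodulin, and CSF1, a macrophage growth factor, were lower than in SB at both times, CSF1 by -1.19 at 3 days (adjusted p = 0.000103). APLP2, a relative of the amyloid precursor protein, was lower at 3 days (-0.46, adjusted p = 0.00483) and not past the threshold at 7 days (0.25, adjusted p = 0.0563). CD74, the invariant chain of MHC class II, fell by 3.43 at 3 days (adjusted p = 0.000326), with SB libraries at 249 and 1236 that were far apart. TGFBR3, the TGFβ co-receptor betaglycan, was at 138 to 181 in the 6 libraries, with a log2 fold change of 0.02 at 3 days (95% interval -0.41 to 0.45) and -0.02 at 7 days (-0.45 to 0.41).

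**Figure D5:**
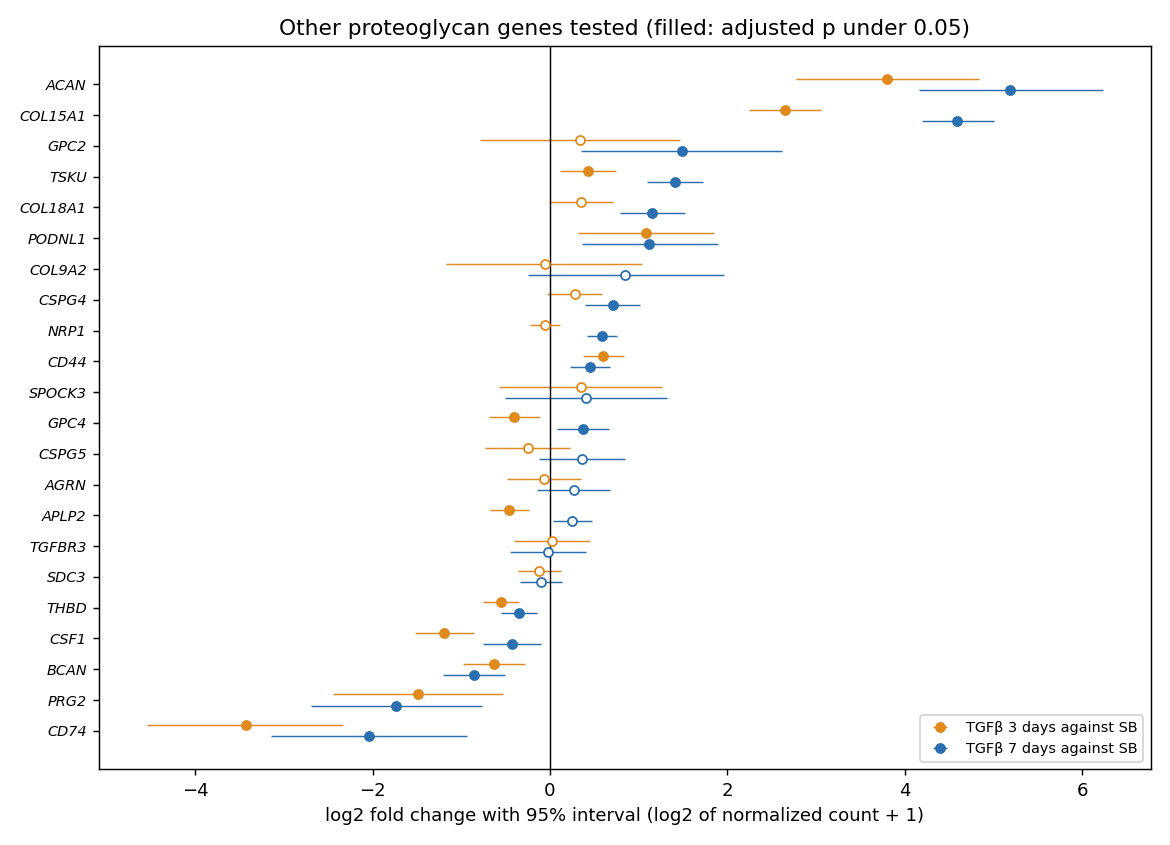
Log2 fold change with 95% interval (horizontal axis) of the 22 other proteoglycan genes tested, for TGFβ 3 days (orange) and 7 days (blue) against SB, ordered by the 7-day value. Filled points have an adjusted p under 0.05. ACAN and COL15A1 lie far to the right and CD74 to the left, and the position of ACAN depends on the pseudocount because it is listed at 0 in SB.

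Genes that act on proteoglycans were read beside them. Of 10 genes for hyaluronan synthesis, binding and linking, 4 were tested, and 1 was higher (HAS2) and 2 lower (HAS3 and HMMR) at 7 days against SB. Over all tested genes, 27.7% were higher and 26.9% lower in that comparison. HAS2, which makes the hyaluronan that versican binds, was at 99 and 175 in SB, 143 and 153 at 3 days, and 522 and 554 at 7 days, a rise of 1.86 on the log2 scale between 3 days and 7 days (adjusted p = 0.00016). HAPLN1, a link protein that locks versican to hyaluronan, was listed at 0 throughout. HAPLN3, another link protein gene of the list, was at 135 to 228 in the libraries and did not pass the threshold in any comparison. Of the 7 enzymes that build or edit the linker between core protein and chain, 6 were tested. PXYLP1, the xylose phosphatase, was lower at 3 days (log2 fold change -0.76, adjusted p = 0.00917) and higher at 7 days (0.66, adjusted p = 0.00955) than SB. The other 5 did not pass the threshold, where 14.0% of all tested genes were lower at 3 days and 27.7% higher at 7 days. XYLT1, a xylosyltransferase that starts chain synthesis, was the one not tested, with a mean of 7.0, and was listed at 0 and 0 in SB, 0 and 5 at 3 days, and 19 and 18 at 7 days. Of 7 tested enzymes that cleave core proteins or edit chains, 1 was higher and 1 lower at 3 days against SB, and 3 were higher and 2 lower at 7 days, near the shares of all genes (14.9% and 14.0%, then 27.7% and 26.9%). ADAMTS15, a versican-cleaving protease, rose 1.93-fold at 3 days and 4.47-fold at 7 days relative to SB (adjusted p = 0.000101 and 4.76e-08). HPSE, which encodes the heparan sulfate-cutting heparanase, was lower at 7 days (log2 fold change -0.73, adjusted p = 0.00264), and CEMIP, a hyaluronan-degrading protein, fell by 4.41 at 3 days (adjusted p = 9.45e-07), with SB libraries at 1003 and 2306.

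To place the members among all genes, the log2 values of each were centred over the 6 libraries and compared with those of 11389 genes whose mean reached 100. The gene most like VCAN was the transcription factor gene TBX18 (root mean square difference 0.08), followed by COL15A1 (0.16) and PTPRB (0.18). TBX18 was at 36 and 33 in SB, 170 and 161 at 3 days, and 698 and 709 at 7 days. SDC4 was nearest to ZNF813 (0.02), SDC1 to SMG6 (0.04), GPC1 to KCNN4 (0.11), HSPG2 to CKB (0.13) and SDC2 to GATSL3 (0.20). Likeness over 6 libraries in 3 groups rests mainly on the group means and is a description.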

How the data were processed

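RNA-seq of H2087-LCC cells comprised 6 libraries in 3 groups of 2, grouped by the treatment label. Polyadenylated RNA was made into libraries with a TruSeq kit that does not mark strand. The authors mapped read pairs to hg19 with STAR, counted reads per gene with HTSeq (0.6.1p1) and normalized by library size; the annotation release is not given in the sources used here. The deposited values are whole-number normalized counts, recorded here under the unit score, and 1316 of the 21293 genes are at 0 throughout. They are not raw counts, so the study's negative binomial test was not used.

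Values were taken as log2(value + 1). In all, 14395 genes whose mean reached 10 entered 1 model with limma 3.58.1 (R 4.3.3), group as the only term, empirical Bayes with a trend, two-sided, Benjamini-Hochberg adjustment over all genes tested, threshold 0.05. With 2 libraries a group, an exact permutation test cannot go below p = 0.333. Fold changes on this scale understate those of low genes. The worth of 1 read was estimated from the spacing of low values. Gene positions and canonical lengths came from GENCODE v44 on GRCh37, promoters from RefSeq on GRCh38.p14. Steps were tested on simulated data. Named genes were the 10 members, called genes of the lists, the nearest 3 genes by pattern, and marker genes; some of these are not reported here. The members, lists and tests were chosen with earlier results of these data known. Alternatives were other pseudocounts, filters, scalings, no trend, 4 libraries, a replicate block, each library left out, and, added later, a GC and length correction and a crossed block. Figures used matplotlib 3.10.9 in Python 3.11.15.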

Additional observations from a re-analysis of the deposited data

Results flagged for a closer look

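The change of SDC2 relative to SB differed between 3 days and 7 days of TGFβ. SDC2 was -0.68 from SB at 3 days, not past the threshold, and 1.59 above it at 7 days, and the test of 7 days against 3 days gave a difference of 2.26 on the log2 scale (adjusted p = 0.000106, limma). Leaving out each library in turn gave 2.12 to 2.40. With 2 libraries per group, no group was large enough to be examined for libraries that stand apart.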

How the results depend on the processing

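Over all alternatives, each called rise of VCAN, SPOCK1, SDC1 and SDC2 stayed past the threshold, and the number of members called stayed within 1.5 times of 4, 5 and 4. The log2 fold changes at 7 days against SB were 3.96 to 4.33 for VCAN and 7.88 to 8.02 for SPOCK1 with all libraries. The number of all genes called between 7 days and 3 days, 4775, fell to 3042 without the filter on low values and 3122 without the limma trend, and that of other proteoglycan genes from 10 to 5 without the filter. Leaving out 1 library gave 2294 to 5570 genes in this comparison and 2608 to 3894 for 3 days against SB; the cause was not tested. SDC4 at 7 days against SB turned to 0.006 with equal upper quartiles, and HSPG2 between 7 days and 3 days turned to 0.36 without the second 3-day library and 0.19 without the second 7-day library, in a range of -0.45 to 0.36. No label ties libraries of equal number, and the deviations of the first libraries correlated at 0.208 for SB and 3 days, -0.13 for SB and 7 days and -0.647 for 3 days and 7 days across 11389 genes. With the replicate block, 5, 6 and 4 members were called, HSPG2 being the added gene, and 3943, 7546 and 4485 of all genes. With the 7-day numbers crossed in the block, 5, 6 and 5 members, HSPG2 added in both comparisons with SB and SDC1 between 7 days and 3 days, and 5404, 8763 and 5972 genes were called. No label calls for this crossing, which was added later, so the calls gained with it carry no weight of their own. Depth limits BGN, DCN and SRGN.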
